A study of Mus musculus with 458 samples.

Results

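A set of 5 genes known for their link to the ageing of haematopoietic stem cells (HSCs), Clu, Gkn3, Plscr2, Nupr1 and Sult1a1, were followed over single donor HSCs from the bone marrow of 6 mice. They were selected by name from 22645 measured genes with the values of these same cells in view, so their levels, shares and differences are descriptions and carry no test. All 5 passed the filter on low values that left 11337 genes. Each mouse had received 1 HSC that expressed Vwf, and the donor HSCs descending from it were sorted from its marrow, so every mouse holds a single clone. The mice were C57BL/6, followed for 16 weeks, and the sort gate was LSK CD150+CD48-CD45.2+, with CD45.2 as the donor marker in all groups. In 2 platelet-restricted mice (PLT, 177 cells) the clone had replenished platelets alone. In 2 mice called PEM (118 cells) it had given platelets, erythrocytes and myeloid cells, and in 2 multilineage mice (MUL, 163 cells) all lineages. The age of the donors was not given in the sources used here. The cell titles of both MUL mice open with 1 shared code, while PLT and PEM mice each have a different one. Whether this code marks an experiment was not established, and groups and any such batch cannot be told apart in any comparison below.

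Old mouse HSCs differ from young ones in a recurrent set of transcripts, many of them shared with platelets and their precursors, and old marrow is known for output biased towards platelets and myeloid cells. Clu encodes clusterin, a secreted chaperone that binds misfolded proteins. Gkn3 encodes a small secreted protein of the gastrokine family, known from stomach mucosa and, in mouse, from arterial endothelium. Plscr2 belongs to the phospholipid scramblases, which move lipids between the leaflets of a membrane. Nupr1 encodes a small stress-induced nuclear protein. Sult1a1 encodes a cytosolic sulfotransferase that adds sulfonate, taken from the donor PAPS, to phenols. Age itself was not compared in these data.

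On the mm10 build with GENCODE M21, all 5 are protein-coding genes. Clu lies at chr14:65968483-65981547 on the plus strand and Plscr2 at chr9:92275602-92297752 on the plus strand. Gkn3 lies at chr6:87383256-87388935 on the minus strand. Nupr1 (chr7:126623249-126630861) and Sult1a1 (chr7:126672865-126676432) share the minus strand of chromosome 7, 42003 bases apart, with 1 gene between them and no protein-coding one. Sult1a1 overlaps Sgf29 on the opposite strand, and whether reads were counted by strand was not given in the sources used here.

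Promoter windows from 250 bases before to 50 after the gene start were taken from RefSeq (GRCm38.p6) for the 3 members that matched by symbol. They are shown because Gkn3 had the widest difference between groups, and because Nupr1 and Sult1a1 are neighbours that were both detected in many cells. Each runs 5′ to 3′ on the minus strand, the strand of the gene, at chr6:87388886-87389185 (Gkn3), chr7:126625421-126625720 (Nupr1) and chr7:126676369-126676668 (Sult1a1). The Nupr1 window starts inside the longer GENCODE gene. Capitals mark the motif matches.
Gkn3: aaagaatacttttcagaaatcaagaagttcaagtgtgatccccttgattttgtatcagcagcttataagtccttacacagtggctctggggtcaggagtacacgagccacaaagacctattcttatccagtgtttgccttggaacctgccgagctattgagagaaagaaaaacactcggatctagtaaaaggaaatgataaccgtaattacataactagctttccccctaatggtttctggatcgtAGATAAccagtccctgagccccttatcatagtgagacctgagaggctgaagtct
Nupr1: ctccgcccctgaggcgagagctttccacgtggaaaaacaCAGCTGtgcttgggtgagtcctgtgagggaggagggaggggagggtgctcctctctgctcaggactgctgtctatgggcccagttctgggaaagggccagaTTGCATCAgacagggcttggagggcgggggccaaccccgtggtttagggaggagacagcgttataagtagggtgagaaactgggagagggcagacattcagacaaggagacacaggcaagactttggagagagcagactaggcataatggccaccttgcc
Sult1a1: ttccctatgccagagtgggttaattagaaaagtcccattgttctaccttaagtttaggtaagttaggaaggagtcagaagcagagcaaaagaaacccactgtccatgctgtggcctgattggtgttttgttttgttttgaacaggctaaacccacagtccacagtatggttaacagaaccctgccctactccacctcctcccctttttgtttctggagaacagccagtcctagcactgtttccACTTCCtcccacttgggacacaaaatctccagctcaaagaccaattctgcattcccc
A set of 7 motifs was searched on both strands, and none of the matches overlap. The GATA motif AGATAA stood at -4 from the start of Gkn3, a motif held by 11.2% of all 32851 promoters. The Nupr1 window held the C/EBP-ATF element TGATGNAA at -110, read as TTGCATCA from the other strand (3.97% of promoters), and the E-box CAGCTG at -211 (16.3%). In Sult1a1 the ETS motif GGAAGT stood at -7, read as ACTTCC (23.8%). The motifs TGANTCA (AP-1, 7.81%), GAANNTTC (heat shock element, 7.86%) and TGTGGT (RUNX, 16.8%) had no match in these windows. A match is a run of letters and no measured binding.

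Expression was deposited as RPKM, which divides a gene's reads by its length and by the depth of the cell. Cells had 1.3 to 17.3 M mapped reads, with medians of 4.28 to 5.32 M per mouse. The authors' count of detected genes had medians of 1869 and 2596 in PLT, 3186 and 2752 in PEM, and 2209.5 and 2553 in MUL mice 1 and 2. The mice held 93 and 84, 93 and 25, and 78 and 85 cells in the same order. At least 1 of 10 HSC markers was at 1 RPKM or more in 88.2% to 100% of the cells of a mouse. At least 3 of them were in 40.9% and 44% of PLT, 90.3% and 68% of PEM, and 48.7% and 77.6% of MUL cells. Markers of other cells were uneven: the summed mean RPKM of 7 neutrophil genes was 2884 and 154 in PLT, 33.5 and 14658 in PEM, and 92.6 and 953 in MUL mice, with Elane, a granule protease gene of their precursors, below 1 RPKM in every cell. PEM mouse 2 also stood highest for erythroid (471 against 15.7 to 127 RPKM) and B cell markers (331 against 26.3 to 51.5).

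A cell was called positive for a gene at 1 RPKM or more. Clu, Gkn3 and Plscr2 were genes of a minority of cells, positive in 85, 51 and 109 cells (18.6%, 11.1% and 23.8% of all), while Nupr1 was positive in 354 and Sult1a1 in 226 (77.3% and 49.3%). The trio was rare in both MUL mice, Gkn3 was frequent in PLT alone, and Nupr1 and Sult1a1 overlapped between the groups.

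**Figure D1:**
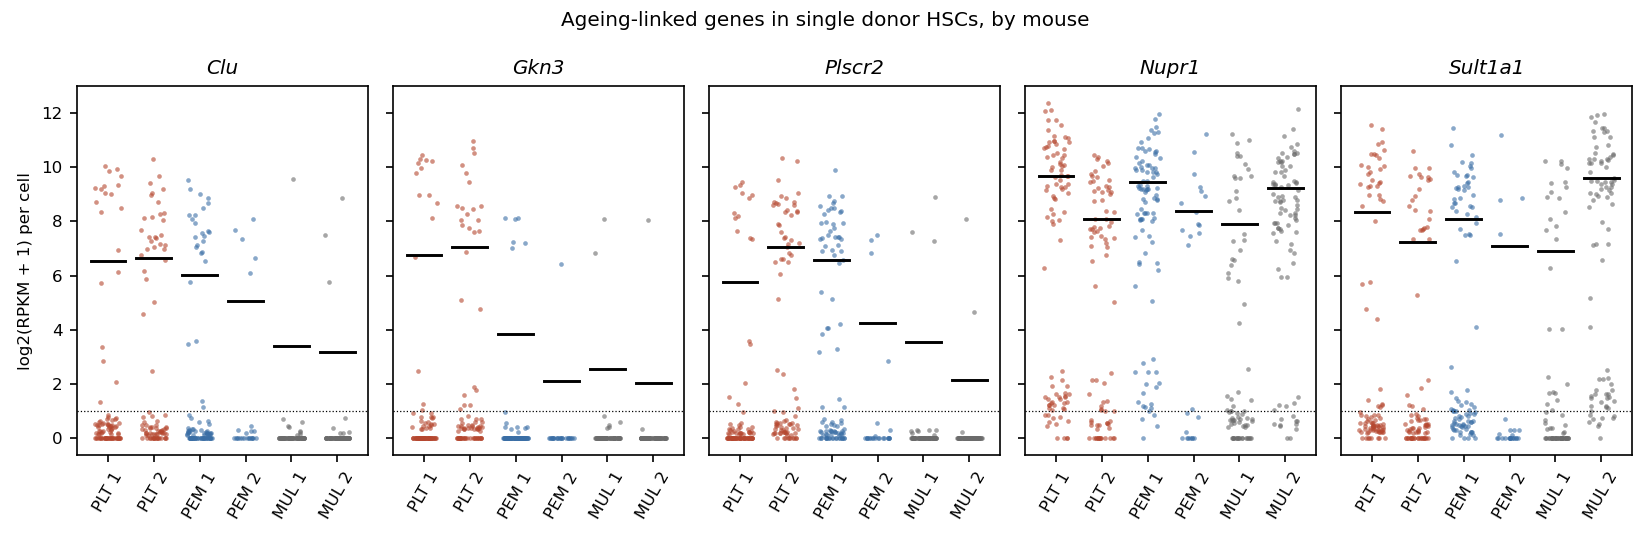
Each point is 1 cell, as log2(RPKM + 1) by mouse; the black bar is log2(mouse mean RPKM + 1) and the dotted line marks 1 RPKM. Cells fall into a high and a low cloud for every gene. Cells of MUL mice (grey) are almost empty of high values for Clu, Gkn3 and Plscr2, with 4, 3 and 5 positive cells of 163.

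Values fell into a high and a low range with few between. Only 4 cells for Clu, none for Gkn3, 9 for Plscr2, 3 for Nupr1 and 5 for Sult1a1 lay from 5 to below 20 RPKM. Below 10 RPKM lay traces, whose median was 0 in 16 of the 30 pairs of a gene and a mouse and above 0 in 14. For Nupr1 the median of these low values was 1.36 RPKM in PLT mouse 1, whose mean was 821 RPKM, and 0.412 in PLT mouse 2, whose mean was 270 RPKM. It was 1.5 and 0 RPKM in the PEM mice (means 707 and 332) and 0.45 and 0.552 RPKM in the MUL mice (means 239 and 593). Wherever such a median was above 0, for any of the 5 genes, it lay between 0.0931% and 0.212% of that mouse's mean. For Nupr1 and Sult1a1 the 1 RPKM limit runs through these low values, which put 67 and 55 cells between 1 and 10 RPKM, against 7, 9 and 14 for Clu, Gkn3 and Plscr2. Whether a low value is expression in that cell was not tested, so a count at 1 RPKM may hold cells that do not express these genes. All 9 such Gkn3 cells were in PLT mice, and all 14 of Plscr2 were in PLT and PEM mice. Shares at 10 RPKM or more are therefore given beside those at 1 RPKM for all 5 genes. The low range also has cells that lie just outside the limit: the highest value below 1 RPKM was 0.944 to 0.995 for the 5 genes, and the lowest at or above it 1 to 1.22.

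Clu was positive in 20 of 93 and 30 of 84 cells of PLT mice 1 and 2, in 26 of 93 and 5 of 25 PEM cells, and in 1 of 78 and 3 of 85 MUL cells. In percent of cells these were 21.5% (exact Clopper-Pearson 95% interval 13.7 to 31.2) and 35.7% (25.6 to 46.9) in PLT, 28% (19.1 to 38.2) and 20% (6.83 to 40.7) in PEM, and 1.28% (0.0325 to 6.94) and 3.53% (0.734 to 9.97) in MUL. These intervals, here and below, cover counting error only. Shares at 10 RPKM or more were 17.2% and 34.5% in PLT, 25.8% and 20% in PEM, and 1.28% and 3.53% in MUL. The PLT and PEM mice overlapped, and all 4 lay above both MUL mice. Mean levels were 93 and 99.2 RPKM in PLT, 63.6 and 32.1 in PEM, and 9.64 and 8.14 in MUL mice. On the scale of log2(mouse mean RPKM + 1), which understates changes of low genes, PLT stood 3.30 ± 0.50 above MUL and PEM 2.23 ± 0.50 above MUL (moderated SE, n = 2 mice each). The SE of log2 differences, here and below, is that of the program limma. It pools the spread within groups over all 6 mice and is moderated over all genes, so it is not the spread of the compared mice alone. Pooled over the mice of a group, positive cells had a median of 236 RPKM in PLT (quartiles 112 and 531) and 173 RPKM in PEM (106 and 286). By mouse the medians were 466 and 170 RPKM in PLT, and 181 and 163 RPKM in PEM, so these groups overlapped. The 4 positive MUL cells ranged from 53.7 to 749.5 RPKM. PLT and PEM differed from MUL in how many cells were positive, and the levels among positive cells overlapped. In MUL mouse 1 a single cell gave 99.7% of all Clu RPKM.

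Gkn3 was positive in 15 of 93 and 26 of 84 cells of the PLT mice (16.1% and 31%), in 6 of 93 and 1 of 25 PEM cells (6.45% and 4%), and in 2 of 78 and 1 of 85 MUL cells (2.56% and 1.18%). Its shares at 10 RPKM or more were 12.9% and 23.8% in PLT, and unchanged in PEM and MUL. Its mean was 106 and 133 RPKM in PLT, 13.5 and 3.36 in PEM, and 4.95 and 3.11 in MUL mice. Both PLT mice stood above the other 4, whose means overlapped. The difference was 4.60 ± 0.71 on the log2 scale for PLT minus MUL, rank 5 of 11337 genes from the highest difference down, and 3.91 ± 0.71 for PLT minus PEM, rank 7. For PEM minus MUL it was 0.68 ± 0.71, and -0.18 without PEM mouse 1. Ratios of the group means were 29.7 and 14.2, for PLT over MUL and for PLT over PEM. Among positive cells pooled by group the median was 308 RPKM in PLT (quartiles 33.6 and 880), 149 in PEM (7 cells) and 264 in MUL (3 cells). By mouse it was 497 and 246 RPKM in PLT. Gkn3 reached the highest single value of the trio, 1998 RPKM, in a cell of PLT mouse 2.

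Plscr2 was positive in 17 of 93 and 39 of 84 cells of the PLT mice, in 44 of 93 and 4 of 25 PEM cells, and in 3 of 78 and 2 of 85 MUL cells. In percent these were 18.3% (95% interval 11 to 27.6) and 46.4% (35.5 to 57.6) in PLT, 47.3% (36.9 to 57.9) and 16% (4.54 to 36.1) in PEM, and 3.85% (0.8 to 10.8) and 2.35% (0.286 to 8.24) in MUL. Shares at 10 RPKM or more were 15.1% and 40.5% in PLT, 41.9% and 12% in PEM, and 3.85% and 2.35% in MUL. Within PLT and within PEM the mice differed about as widely as the groups, and both MUL mice were lowest. Means were 52.8 and 131 RPKM in PLT, 94.9 and 18.2 in PEM, and 10.6 and 3.47 in MUL mice. PLT stood 3.55 ± 0.86 and PEM 2.58 ± 0.86 above MUL on the log2 scale, and PLT minus PEM was 0.97 ± 0.86 with overlapping mice, and -0.19 without PEM mouse 2.

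Nupr1 was the most widespread of the 5. It was positive in 87.1% and 69% of the cells of the PLT mice, 94.6% and 60% of the PEM mice, and 48.7% and 87.1% of the MUL mice. At 10 RPKM or more the shares were 60.2% and 54.8% in PLT, 79.6% and 56% in PEM, and 35.9% and 81.2% in MUL. Mean levels were 821 and 270 RPKM in PLT, 707 and 332 in PEM, and 239 and 593 in MUL mice. Every group held 1 high and 1 low mouse, so the groups overlapped, and the differences were 0.32 ± 0.63 between PLT and MUL and 0.36 ± 0.63 between PEM and MUL on the log2 scale. Their sign rested on single mice: without MUL mouse 1 they were -0.33 and -0.29, the first was -0.48 without PLT mouse 1, and the second -0.18 without PEM mouse 1.

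Sult1a1 was positive in 40.9% and 35.7% of the cells of the PLT mice, 55.9% and 16% of the PEM mice, and 33.3% and 89.4% of the MUL mice. At 10 RPKM or more these were 34.4% and 28.6% in PLT, 40.9% and 16% in PEM, and 23.1% and 64.7% in MUL. MUL mouse 2, at a mean of 777 RPKM, stood above the other 5, which had 321 and 149 in PLT, 268 and 136 in PEM, and 119 in MUL mouse 1. On the log2 scale PLT minus MUL was -0.48 ± 0.81 and PEM minus MUL -0.68 ± 0.81. Without MUL mouse 2 they turned to 0.87 and 0.67, and the first was 0.07 without PLT mouse 2 and 0.48 in cells with the title code P1. In PLT and PEM the mouse recorded as female had the lower mean of both Nupr1 and Sult1a1. MUL mouse 1, with the lowest means of both genes, was recorded as male, and the part of recorded sex was not tested.

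**Figure D2:**
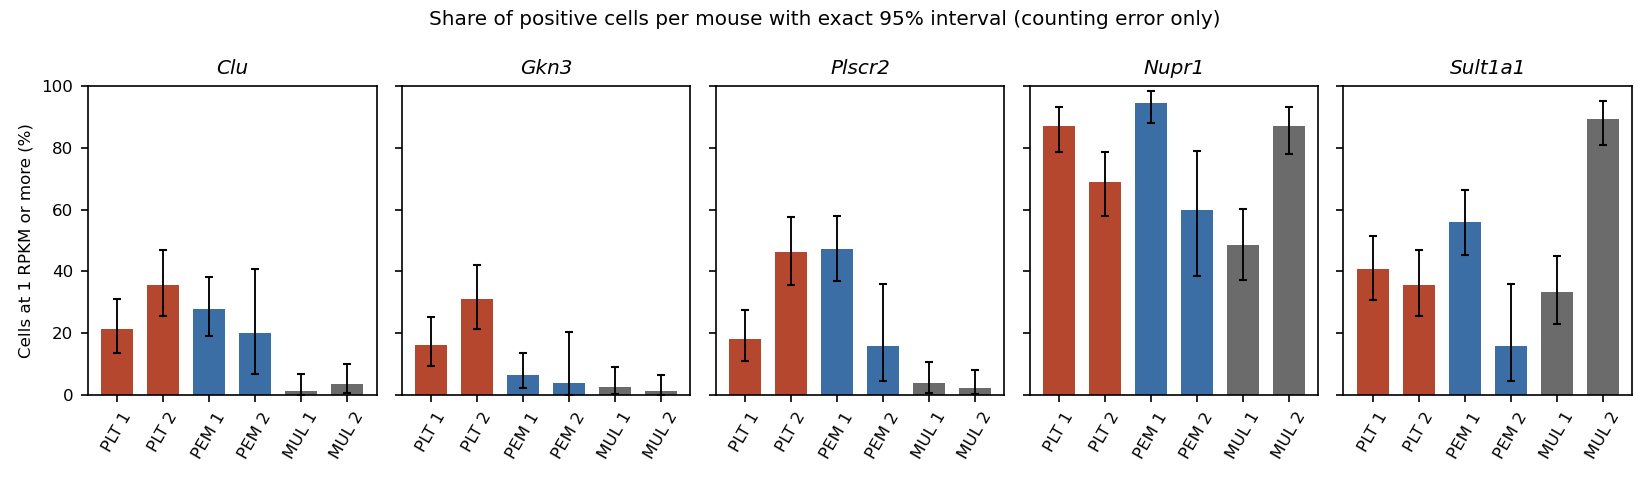
Bars give the percent of cells at 1 RPKM or more in each mouse, with exact 95% intervals for counting error. For Clu the PLT and PEM bars stand between 20% and 35.7% and the MUL bars at 1.28% and 3.53%; for Sult1a1 MUL mouse 2 reaches 89.4%.

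Because the genes were selected on these contrasts, their counts are read beside the background of all genes. Both PLT mice lay above both MUL mice for Clu, Gkn3 and Plscr2, 3 of the 5, against 14.8% of the 11337 genes. Both PEM mice lay above both MUL mice for Clu and Plscr2, against 17.5% of genes. Both PLT mice lay above both PEM mice for Clu and Gkn3, against 14.1% of genes. The program limma, with Benjamini-Hochberg adjustment over all genes, called 0.00882% of genes for PLT minus MUL, a single gene outside the 5, with 953 genes at an unadjusted p under 0.05 (277 higher and 676 lower in PLT). It called 0% for PEM minus MUL (634 genes at an unadjusted p under 0.05) and 0% for PLT minus PEM (949 genes). With 2 mice a group, p = 0.33 is the smallest that an exact permutation test can give (two-sided). The median log2 difference of all genes was -0.18 for PLT minus MUL, and 0.03 after quantile normalization, and the trio was higher in PLT in both.

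Detection of Clu went with the number of genes detected in a cell. Cells were divided into tertiles of detected genes within each mouse, and Clu was positive in 7.24% of the 152 cells of the lowest tertile, 12.5% of the 152 in the middle and 35.7% of the 154 in the highest. The same shares were 7.89%, 9.21% and 16.2% for Gkn3, 17.8%, 23.7% and 29.9% for Plscr2, and 65.8%, 77% and 89% for Nupr1. Sult1a1 changed little, from low to high detection, with 52%, 48.7% and 47.4%, and its mice ran in both directions. From the lowest to the highest tertile it fell from 74.2% to 38.7% in PEM mouse 1, and less in PLT mouse 2, PEM mouse 2 and MUL mouse 2. It rose from 26.9% to 42.3% in MUL mouse 1 and from 41.9% to 51.6% in PLT mouse 1. In the 273 cells with 1800 to 3000 detected genes, Clu was positive in 27.3% and 23.2% of PLT, 8.33% and 0% of PEM, and 1.89% and 1.61% of MUL cells. Its PEM minus MUL difference turned to -1.58 on the log2 scale there, with 36 and 11 PEM cells left. The 0 of 11 cells of PEM mouse 2 allow a share of up to 27.3%, taking 3 counts as the limit. In the same window Plscr2 was positive in 25.5% and 44.6% of PLT, 47.2% and 9.09% of PEM, and 0% and 3.23% of MUL cells, and Gkn3 in 16.4% and 28.6%, 2.78% and 0%, and 1.89% and 0%. By the same limit, the 0 of 53 cells of MUL mouse 1 for Plscr2 allow up to 5.66%, and the 0 of 62 cells of MUL mouse 2 for Gkn3 up to 4.84%.

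Cells of a mouse also carry the codes P1 or P2 before the well in their titles, and the pair differed for some genes. Clu was positive in 16 of 47 P1 and 4 of 46 P2 cells of PLT mouse 1, and in 5 of 14 and 0 of 11 of PEM mouse 2. Nupr1 was positive in 12 of 14 P1 and 3 of 11 P2 cells of PEM mouse 2, where P2 cells had a median of 12.2 M reads and 1944 detected genes against 3.2 M and 3223.5 in P1. Sult1a1 was positive in 6 of 43 P1 and 20 of 35 P2 cells of MUL mouse 1, and at 10 RPKM or more in 3 and 15 of them, while the P1 and P2 medians there were 2288 and 2172 detected genes. For Clu, PLT lay above MUL within P1 (34% and 39.5% against 2.33% and 4.44%) and within P2 (8.7% and 31.7% against 0% and 2.5%). The part of these codes in the levels was not tested.

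**Figure D3:**
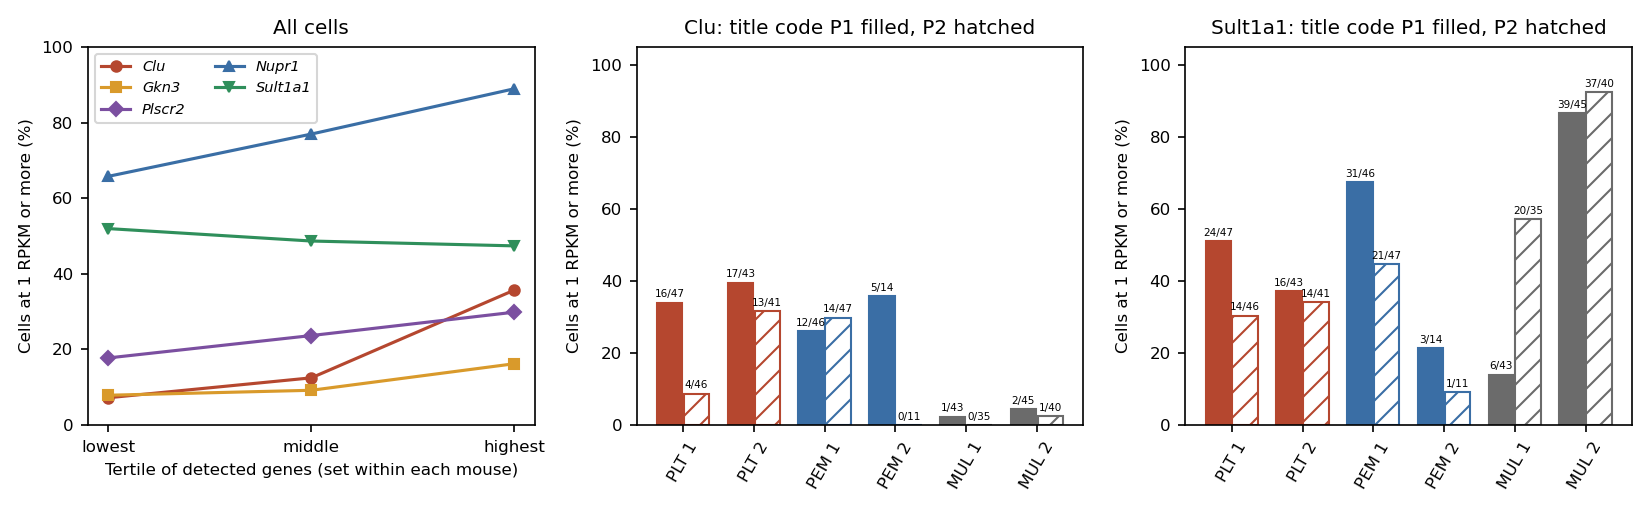
Left, percent of cells at 1 RPKM or more by tertile of detected genes, over all cells; middle and right, the same share for Clu and Sult1a1 by mouse and title code, with positive and total cells above each bar. Clu climbs to 35.7% in the highest tertile, and Sult1a1 in MUL mouse 1 differs between 6 of 43 P1 and 20 of 35 P2 cells.

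The shares of the trio were also taken without cells that held several markers of other types. In the 431 cells with fewer than 3 markers of each of 7 lists (neutrophil, macrophage, erythroid, B cell, T and NK cell, endothelial and stromal), a limit chosen after seeing the data, Clu was positive in 22.5% and 35.4% of PLT, 27.5% and 26.3% of PEM, and 1.32% and 3.61% of MUL cells. Gkn3 was positive there in 18.8% and 31.7%, 6.59% and 0%, and 2.63% and 1.2%, and Plscr2 in 20% and 45.1%, 46.2% and 21.1%, and 3.95% and 2.41%. No cell held 3 markers of the T and NK cell, endothelial or stromal list, so these lists took none out. At least 1 of 7 endothelial markers was positive in 21.5% and 23.8% of PLT, 41.9% and 28% of PEM, and 23.1% and 47.1% of MUL cells, with sums of 19 to 51.1 RPKM over the mice. These were mainly Tie1 (99 cells) and Pecam1 (57), which HSCs can also express, with 3 cells for Kdr and 2 for Cldn5. Cdh5, which defines that cell type, and the arterial genes Sema3g and Gja5 were below 1 RPKM in every cell. Mature megakaryocyte genes, some of which HSCs can also express, summed to 175 and 706 RPKM in PLT, 524 and 1506 in PEM, and 227 and 56.8 in MUL mice. At least 3 of the 6 were positive in 3.23% and 16.7% of PLT, 14% and 28% of PEM, and 5.13% and 2.35% of MUL cells. In the 390 cells left when these were taken out too, Clu was positive in 20.5% and 27.9% of PLT, 16.7% and 7.69% of PEM, and 1.39% and 2.47% of MUL cells. Gkn3 was positive there in 19.2% and 26.5%, 5.13% and 0%, and 0% and 1.23%, and Plscr2 in 20.5% and 42.6%, 46.2% and 23.1%, and 4.17% and 2.47%. The Clu share was lower without these cells in the PLT and the PEM mice, and the part of these genes in the levels was not tested.

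As a set, the trio was spread over the cells near what independent detection would give, with Clu and Gkn3 as the pair furthest from it. At least 1 of Clu, Gkn3 and Plscr2 was positive in 45.2% and 72.6% of PLT, 64.5% and 32% of PEM, and 7.69% and 7.06% of MUL cells. From the shares of each gene in each mouse, independent detection would give nearly these counts. In PLT 42 and 61 cells were observed against 43 and 64 expected, in PEM 60 and 8 against 60 and 8.87, and in MUL 6 and 6 against 5.86 and 5.87. Of all cells, 9 held the whole trio (5.73 expected) and 44 held a pair of it (46 expected). Summed over its pairs, 71 co-positive cells stood against 63.2 expected, a ratio of 1.12, and 1.01 when the expected number was set within tertiles of detected genes. Clu with Gkn3 was the pair furthest above, at 20 cells against 14.4 expected and 16.8 within tertiles, 13 of them in PLT mouse 2. The ratio was 1.38, and 1.19 within tertiles, and PLT mouse 1 had 3 such cells against 3.23 expected. At 10 RPKM or more this pair had 17 against 10.8, a ratio of 1.58. All expected numbers at 10 RPKM, here and below, were set without tertiles. Clu with Plscr2 had 33 against 30.8 (28 against 24.9 at 10 RPKM), and Gkn3 with Plscr2 18 against 17.9 (12 against 12.6). Clu and Sult1a1 met in 30 cells against 37.2 expected (34.6 within tertiles), above the expected number in none of the 4 mice that expected 1 or more.

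Nupr1 and Sult1a1, the neighbours on chromosome 7, met in 191 cells against 184 expected, and at 10 RPKM or more in 120 against 116. Across the cells of a mouse their Spearman rho averaged 0.16, from 0.011 in PLT mouse 1 (93 cells) to 0.42 in PEM mouse 2 (25 cells). Nupr1 without Sult1a1 was the common state in PLT mouse 1 (48 cells, with 5 of the opposite kind), whereas in MUL mouse 2 both were positive in 68 of 85 cells. Of the genes around them, Cln3 averaged 8.14 to 30.5 RPKM over the mice, Apobr 0.323 to 7.66, Il27 2.59 to 18.7 and Slx1b 6.94 to 16.6. Bola2 (52.9 to 199) and Coro1a (50.1 to 252), further along on the side of Sult1a1, reached levels like those of Sult1a1 in some mice. Such a rho is a description of cells that share a mouse, a depth and a sort.

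**Figure D4:**
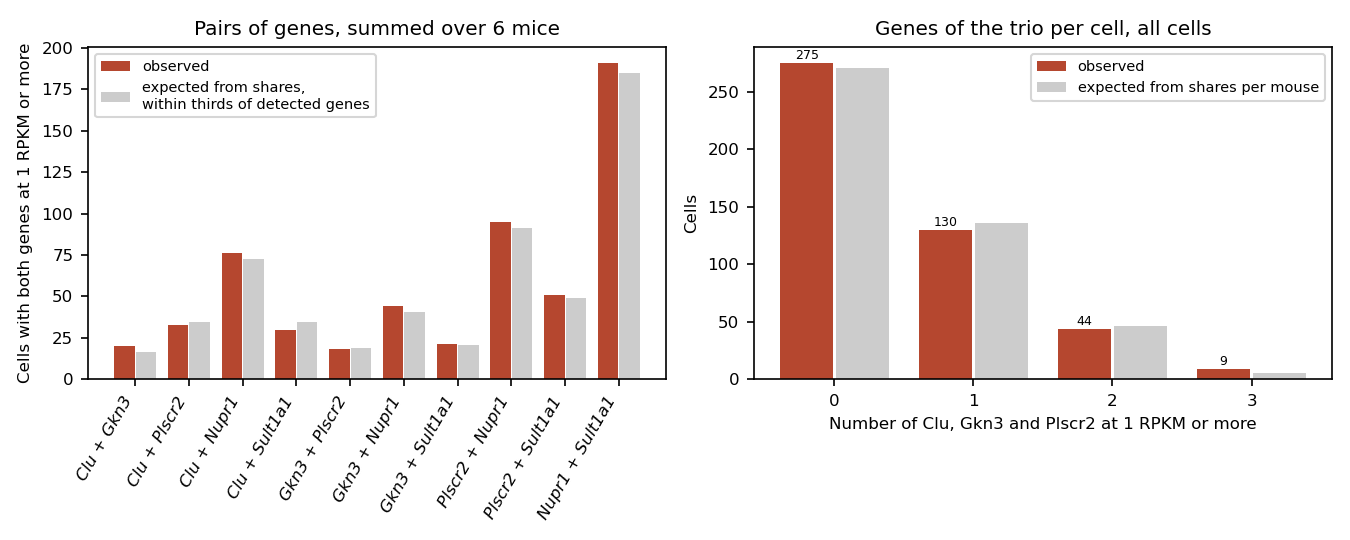
Left, cells in which both genes of a pair were at 1 RPKM or more (red) beside the number expected from their shares in each mouse within tertiles of detected genes (grey). Right, cells by how many genes of the trio were positive: 275, 130, 44 and 9 cells held none, 1, 2 and 3. Within the trio, the bars of Clu with Gkn3 lie furthest apart relative to their height, at 20 and 16.8 cells.

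Each of the 5 was also set beside 9 genes of HSCs, platelets or HSC ageing (Vwf, Mt1, Mt2, Aldh1a1, Mmrn1, Slamf1, Selp, Cd34 and Procr), picked with no fixed rule. Expected numbers here are those within tertiles of detected genes. Over all pairs, observed over expected ran from 0.407 (Gkn3 with Cd34, 2 cells against 4.91) to 1.37 (Plscr2 with Cd34, 20 against 14.6). Clu met Vwf, the marker of the transplanted cells, in 49 cells against 43.2, the metallothionein genes Mt2 in 17 against 14.6 and Mt1 in 75 against 73.3, and Mmrn1, the platelet granule gene multimerin 1, in 20 against 20.4. Gkn3 met Aldh1a1 in 21 cells against 16 and Selp, the gene of P-selectin, in 24 against 18.8. It met Mmrn1 in 11 cells against 16.1, and Slamf1, the gene of CD150, and Procr each in 7 against 11.4. Plscr2 met Slamf1 in 36 cells against 29.9 and Vwf in 45 against 51.7. Sult1a1 met Procr, a surface marker of HSCs, in 68 cells against 58.4.

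The genes most like each member were ranked by mean Spearman rho over mice with at least 5 positive cells, among 6666 genes positive in at least 10% of cells. For Sult1a1 (5 mice) these were Ly6a (mean rho 0.32, from 0.21 to 0.43), Gbp4 (0.30), Ly6c2 (0.29), Gbp8 (0.29) and Gbp6 (0.29), against a median of -0.012 over the candidates. Ly6a encodes Sca-1, a marker within the LSK gate, and the Gbp genes encode guanylate-binding proteins, which interferons induce. The rho of Ly6a was above 0 in all 10 sets of cells with 1 mouse and 1 title code, and that of Gbp8 in 9. Ly6a averaged 290 and 191 RPKM in PLT, 444 and 400 in PEM, and 301 and 538 in MUL mice. In MUL mouse 1 it was positive in 51.2% of P1 and 57.1% of P2 cells, where Sult1a1 had 14% and 57.1%. Ly6c2 lay below 1 RPKM on average in 3 mice, and reads of the Ly6 and Gbp paralogs can be split between copies.

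For Clu (4 mice, PLT and PEM) the most similar genes were Gypc (0.40), the gene of a red cell membrane protein, Srm (0.40), the gene of spermidine synthase, Gmps (0.39), of GMP synthesis, Gata1 (0.39), the megakaryocyte-erythroid transcription factor, and Shmt2 (0.38), of mitochondrial one-carbon metabolism. Over the 4 mice, rho ran from 0.23 to 0.70 for Gypc, 0.35 to 0.46 for Srm and 0.24 to 0.54 for Gmps. It ran from 0.16 to 0.64 for Gata1 and from 0.085 to 0.85 for Shmt2. The candidates' median with Clu was 0.096. Given detected genes, the partial rho was 0.31 for Gypc, 0.21 for Srm, 0.26 for Gmps, 0.27 for Gata1 and 0.26 for Shmt2. Within the 7 sets of cells with 1 mouse and 1 title code in which Clu varied, mean rho was 0.29, 0.33, 0.28, 0.35 and 0.29 in the same order. It was above 0 in all 7 sets for Gypc and Gata1 and in 6 for the others. Their lowest values were -0.03 for Srm, -0.27 for Gmps and -0.14 for Shmt2. Nupr1 (6 mice) had Cers2 (0.29), a ceramide synthase gene, then Thumpd1, Rab37, Rpn2 and Lgals9 (0.23 to 0.24). Over these mice rho ran from 0.084 to 0.72 for Cers2 and from -0.21 to 0.90 for Rab37. The lowest rho of Thumpd1 and Lgals9 was also below 0. Plscr2 (3 mice) had Dram2 (0.33), a gene of a lysosomal membrane protein, Mphosph6 (0.25), Zdhhc6 (0.24) and 2 genes known only as predictions. Gkn3 (3 mice) had Dusp11, Slc25a13, Slc25a4, Htatsf1 and Ahcyl1 at 0.23 to 0.25. These are weak relations in sparse values, and none of the named genes was another of the 5.

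Relatives and partners of the 5 were measured from lists of family members. The gastrokine genes Gkn1 and Gkn2 were listed at 0 in every cell, so Gkn3 was the only one of the 3 with a value above 0. Of the other scramblases, Plscr1 was the highest, at 112 and 139 RPKM in PLT, 183 and 58.5 in PEM, and 118 and 90.8 in MUL mice. Plscr4 averaged 32 ± 7.02 in PLT, 36.7 ± 13.2 in PEM and 45.2 ± 17.2 RPKM in MUL (SD, n = 2 mice each). Plscr3 had 4.1 ± 0.208, 14.6 ± 3.77 and 10.1 ± 4.18 RPKM in PLT, PEM and MUL, and Plscr5 was listed at 0. Ano6 and Xkr8, scramblases of other families, stayed at or below 23.9 and 6.56 RPKM in every mouse. Mouse means of Plscr1, Plscr4 and Ano6 overlapped in all comparisons. Among 7 other sulfotransferase genes none exceeded 7.17 RPKM in any mouse, Sult1b1 and Sult1c2 were listed at 0, and Papss1, which makes the sulfonate donor, had 18.8 ± 7.8 RPKM in PLT, 16 ± 2.23 in PEM and 9.71 ± 7.21 in MUL. Its paralog Papss2 reached at most 6.78 RPKM. None of these passed limma's adjusted threshold in any comparison (lowest adjusted p = 0.595, for Plscr3 in PLT minus PEM).

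The integrated stress response, a pathway in which Atf4 drives stress genes such as Ddit3 and through which Nupr1 can be induced, was given by 7 measured genes, 5 of which passed the filter. None passed limma's adjusted threshold in any comparison. Trib3, an inhibitor of that pathway, had 0.00264 and 0.314 RPKM in PLT, 14.5 and 8.92 in PEM, and 17.5 and 39.2 in MUL mice, a log2 difference of -4.57 ± 0.77 for PLT minus MUL (limma, adjusted p = 0.285). Ddit3 had 15.4 and 34.7 RPKM in PLT, 39 and 93 in PEM, and 69.5 and 47.8 in MUL mice (adjusted p = 0.613). Atf4 had 46.2 and 23.5, 9.15 and 24.2, and 22.8 and 22.3 RPKM, and Asns, an amino acid synthesis gene of the pathway, 38.8 and 64.6, 31.6 and 17.5, and 15.3 and 28.1, in PLT, PEM and MUL. Atf3 and Chac1 had at most 0.0432 RPKM in any mouse, and the paralog Nupr1l reached at most 8.08. Of the clusterin receptors, Lrp2 and Trem2 were at or near 0 in every mouse but for 1.62 RPKM of Trem2 in PLT mouse 2, Lrp8 lay between 0.0301 and 4.47 RPKM, and Vldlr was listed at 0 in both PLT mice and MUL mouse 1. Of the extracellular chaperones, A2m was near 0, and Hp, also a neutrophil gene, had 67.7 RPKM in PEM mouse 2 and at most 10.8 elsewhere.

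Other genes linked to HSC ageing were taken from a list of 45, of which 44 were in the table and 37 passed the filter. This list was set with earlier results of these data known, so its counts beside all genes are descriptions and no test of enrichment. For PLT minus MUL the median log2 difference of the 37 was 0.97, beside -0.18 over all genes. Of the 37, 26 were higher and 11 lower, where 41.6% of all genes were higher, and 0 passed adjustment (limma, lowest adjusted p = 0.0883). At an unadjusted p under 0.05, 11 were higher and 1 lower, beside the 277 and 676 of all 11337 genes. Both PLT mice lay above both MUL mice for 13 of them (35.1%), where all genes gave 14.8%. The median was 0.36 without PLT mouse 1, 1.72 without PLT mouse 2 and 0.31 without MUL mouse 1. For PEM minus MUL the median was 0.70, beside -0.04 over all genes, with 29 higher and 8 lower, where 47.6% of all genes were higher. Of these 0 passed adjustment (limma, lowest adjusted p = 0.868), and 8 were higher at an unadjusted p under 0.05, beside 318 of all genes. Both PEM mice lay above both MUL mice for 14 (37.8%), where all genes gave 17.5%. Between PLT and PEM the median was 0.29 and 6 (16.2%) lay above, close to the 14.1% of all genes. Several list members are also genes of platelets, Vwf, Selp, Itgb3 and Mmrn1 among them.

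By the smallest p, the leading genes of PLT minus MUL were Mmrn1, Mt1, Mt2, Sdpr, Ramp2 and Jam2. Mmrn1 had 97.5 and 84.4 RPKM in PLT and was listed at 0 in both MUL mice (adjusted p = 0.0883). Mt1 had 231 and 280 RPKM in PLT, 116 and 120 in PEM, and 31.6 and 15.1 in MUL mice (limma, adjusted p = 0.102 against MUL for PLT and 0.868 for PEM). Mt2, its neighbour, had 14.3 and 18.9 in PLT, 8.91 and 6.48 in PEM, and was listed at 0 in MUL. Sdpr, the gene of a protein of caveolae, had 72.9 and 83.8 RPKM in PLT, 45.4 and 78.5 in PEM, and 19.7 and 13.1 in MUL mice (adjusted p = 0.461 and 0.868). Jam2, an adhesion molecule gene, had 64.1 and 16.7 in PLT, 20.6 and 6.19 in PEM, and 0.586 and 6.21 in MUL mice. Ramp2, of a receptor-modifying protein, had 36.9 and 13.2 in PLT and was listed at 0 in MUL. For PEM minus MUL, Sbspon joined Mt1, Mt2 and Sdpr, with 3.41 and 10.5 RPKM in PEM and 0 in both MUL mice. Both PLT mice lay above both PEM mice for Mmrn1, Mt1, Mt2 and Ramp2, while PLT and PEM overlapped for Sdpr, Jam2 and Sbspon. The list of 45 was set with earlier results of these data known.

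**Figure D5:**
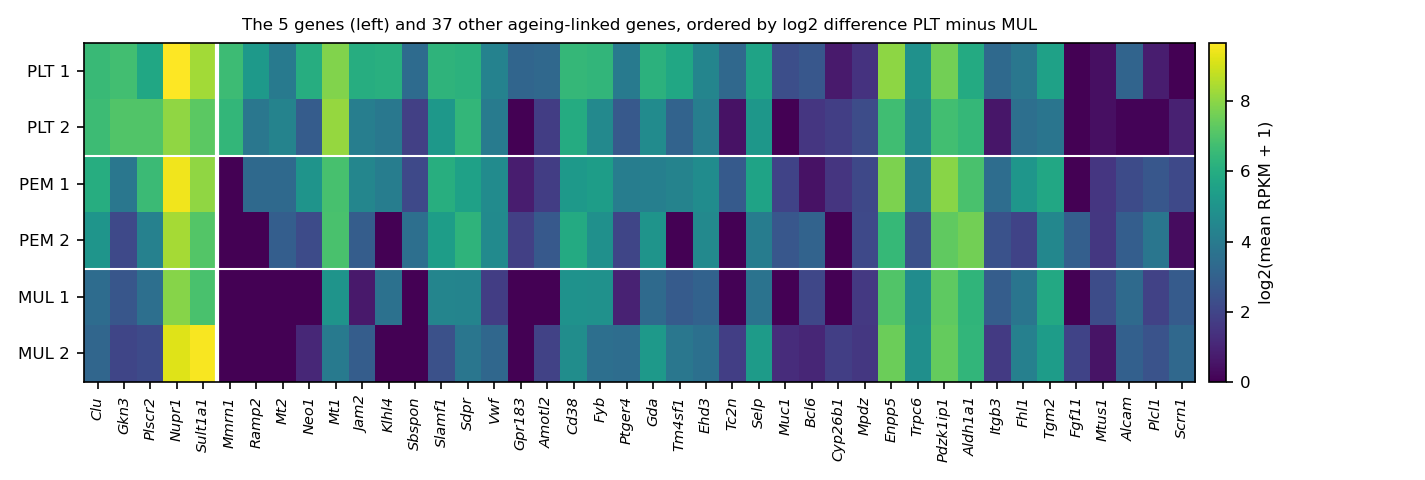
Colour gives log2(mean RPKM + 1) for each mouse (rows, PLT at the top) and gene (columns), with the 5 genes left of the white line and the 37 others ordered by their PLT minus MUL difference. Clu, Gkn3, Plscr2, Mmrn1, Mt2 and Ramp2 are dark in both MUL rows, while Nupr1, Sult1a1, Enpp5 and Pdzk1ip1 are bright in all 6.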

How the data were processed

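The expression table was deposited as RPKM for 22645 genes, and neither the gene lengths nor the read totals that the authors used are given in the sources used here. The submitters' processing notes name TopHat, featureCounts and the mm10 build and give no versions. A second deposited table has 1 row per cell and, per the file headers, a count of mapped reads, the authors' count of detected genes and the mitochondrial reads in percent. Per the labels' protocols, cells were index sorted, and their libraries came from Clontech's SMARTer Ultra Low kit for RNA. Mice were told apart by the start of each cell's title, and their numbers follow accession order.

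No cell was filtered out and no doublet caller was run. RPKM was averaged over the cells of a mouse, since cells of 1 mouse share their source. The fit used log2(mean RPKM + 1) for the 11337 genes whose mean reached 1 RPKM in 2 or more mice. It was made with limma 3.58.1 in R 4.3.3, with 1 mean per group over all 6 mice, a trended variance, Benjamini-Hochberg adjustment and a threshold of 0.05. It has 3 residual degrees of freedom (8.33 after moderation). On data simulated with the measured spread it recovered the sizes of the changes with few false calls, but called small changes in no gene, so a gene not called may still differ. Nothing in the labels says whether the mice shared a donor. Co-detection was compared with the product of both shares in each mouse. The members and lists were chosen with earlier results of these data known. Named genes were the 5 members, 6 and 4 ageing-linked genes with the smallest p against MUL in PLT and in PEM, all family genes, and the 5 most similar genes per member. Alternatives were pseudocounts of 0.1 and 10, no filter, 2 scalings, other cell subsets, other limits for positive cells, and each mouse left out. Python 3.11.15 with pandas 2.3.3 and scipy 1.17.1 made the descriptions.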

Additional observations from a re-analysis of the deposited data

How the results depend on the processing

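For PLT minus MUL limma called 1 gene, and 0 with a pseudocount of 0.1, 2 with a pseudocount of 10, 19 without the filter, 4 after quantile normalization, 0 with the mean of log2 values and 0 without any 1 of the mice. Without the filter, PEM minus MUL had 9 calls and PLT minus PEM 4, against 0 in both. Of the 5 members, 3 lay above in both PLT mice against MUL (3 to 5 with a mouse left out, 5 without MUL mouse 2). In PEM against MUL it was 2 (1 in cells with 1800 to 3000 detected genes, 1 in P2 cells, 2 to 4 with a mouse left out, 4 without PEM mouse 2 or without MUL mouse 2). In PLT against PEM it was 2 (1 with the mean of log2 values, 1 with 25 cells per mouse, 1 in P2 cells, 2 to 4 with a mouse left out, 4 without PLT mouse 2 or without PEM mouse 1). The Clu difference for PEM minus MUL reversed to -1.58 in cells with 1800 to 3000 detected genes. The cause was not tested. Of 195 log2 differences of members under alternatives, 21 changed sign, and the other 20 were differences whose groups overlapped: 9 for Sult1a1, 8 for Nupr1, 2 for Gkn3 (PEM minus MUL) and 1 for Plscr2 (PLT minus PEM).

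The difference in percent of positive cells, PLT minus MUL, was 26.2 points for Clu, 61.1 counting cells above 0, 33.4 in P1 and 19 in P2 cells. For Gkn3 it was 21.7 and 44.8 above 0, for Plscr2 29.3 and 59 above 0, and for Sult1a1 -23.1 and 9.52 above 0, which counts the low traces. Of the other ageing-linked genes, 13 lay above in PLT against MUL (15 to 27 with a mouse left out, 27 without PLT mouse 2, 20 without MUL mouse 2) and 14 in PEM against MUL (17 to 26, 26 without PEM mouse 2). With 1 mouse left in a group, fewer pairs need to agree. Co-detection of the trio had a ratio of 1.12, and 1.01 to 1.18 over 9 other settings, of which 10 RPKM was chosen after seeing the data.

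No paired analysis was possible because mouse numbers follow accession order and pair no mice. Cells with no marker of any other type were 12 in all, with none in PEM mouse 2 or MUL mouse 2, so that planned subset gave no group difference, and fewer than 3 markers of a list was used instead. At least 1 of 6 stromal markers was positive in 87.1% to 100% of the cells of a mouse, at summed means of 3.07 to 7.05 RPKM. The stromal genes Cxcl12, Col1a1, Dcn and Lum were below 1 RPKM in every cell, which leaves Lepr and Col1a2. With 2 mice a group and weak detection of transcripts in single cells, a gene at 0 in a cell may still be expressed there.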
